A study of Mus musculus with 16 samples.

Results

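Osteosarcomas of mice with floxed Arid1a were compared with osteosarcomas of mice with intact Arid1a at bone or limb sites, using 11 of the 16 tumors sequenced. The floxed group held 4 of 8 tumors (Medusa, Ohio, Grilka and Zelda), each from its own mouse, and was chosen because these tumors had high levels of cell-cycle genes. The wild-type (WT) group held 7 of 8 tumors, chosen because their label names a bone or limb site: N43 spine, N43 pelvis, N42 R pelvis, N42 R femur, N42 L limb, N42 L shoulder and N215 R hind limb. These 7 tumors came from only 3 mice, 4 from N42, 2 from N43 and 1 from N215. The lung tumor of the WT group was left out. The 4 other floxed tumors were left out for low levels of cell-cycle genes, and most also held much RNA of normal tissue.

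All 11 tumors arose in mice of genotype OsxCreERT2+/-;p53fl/fl;Rb1fl/fl, and the floxed group carried Arid1afl/fl in addition. The Cre recombinase acts in cells that express Osterix, a transcription factor of bone-forming cells, once tamoxifen is given. Mice of both groups received 400 µg tamoxifen per gram of body weight at 1 month of age and were over 6 months old at collection. By the labels the mice were of both sexes, with none given for a single mouse, and no floxed tumor has a body site, so site cannot be told apart from genotype in this comparison.

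ARID1A is a DNA-binding subunit of the SWI/SNF complex, which uses ATP to move nucleosomes and so changes which parts of the genome are open to transcription factors. p53 halts or kills cells with damaged DNA, and RB1 holds back the E2F factors that switch on DNA synthesis. Loss of p53 and RB1 in bone-forming cells gives osteosarcoma in mice, a tumor of cells that lay down bone matrix among macrophages, osteoclasts and vessels.

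The values that chose the floxed tumors are given as a description and were not tested. On the scale of all 16 tumors, the mean log2 level in counts per 1000000 of the library (CPM) of a list of mitotic genes was 5.97 in Medusa, 5.40 in Ohio, 5.12 in Grilka and 5.74 in Zelda. Just outside the choice, Oregon was at 1.84, Massa at 1.20, Montana at 1.07 and Prince at 0.84. The gap between the lowest tumor kept and the highest left out was therefore wider than the range within either set. The 7 WT tumors, which were not chosen on this value, lay between 3.34 in N43 spine and 5.79 in N42 L limb, so they overlapped the floxed group. Among the left-out floxed tumors, skeletal muscle genes took 22.7% of the counts of Montana and 21.4% of Oregon, and salivary gland genes 9.94% of Prince. In Massa, lung genes took only 0.582%. Zelda, which was kept, held 0.408% liver and 0.356% erythroid genes, so normal-tissue RNA does not part Massa from Zelda. Cell-cycle and normal-tissue genes are accordingly not offered below as differences between genotypes.

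The libraries were unequal in ways that bear on every result below. Total counts were 1812818 in Grilka, 4884181 in Medusa, 7761206 in Ohio and 10036373 in Zelda, against 7806160 to 16962329 in WT. The log2 total was lower in floxed by 1.45 on average (2-sided exact permutation test over the 11 tumors, p = 0.00606, n = 4 and 7, with 0.00303 the smallest p this design allows). That test treats tumors of a single mouse as independent, and averaged per mouse the difference was −1.27 (exact permutation test, p = 0.143, 4 against 3 mice, smallest possible p 0.0286). A count of 3 corresponds to 4.40 CPM in Grilka but to 0.164 to 0.371 CPM in WT, so a gene of low level is barely seen in Grilka. Genes that take up residual ribosomal RNA reads summed to 140259 CPM in Medusa, 4499 in Ohio, 664054 in Grilka and 4067 in Zelda, against 1008 to 19452 CPM (median 1763) in WT. Medusa and Grilka were the 2 highest libraries on this measure, and N215 was the highest of the WT libraries. Zelda held the most liver, erythroid and lymphoid RNA. Alb, the main liver plasma protein, stood at 975 CPM there and at 0 in the other floxed tumors. Erythroid genes summed to 2697 CPM in Zelda, but also to 617 in N43 spine and 422 in N43 pelvis, against 18.3 to 47.9 in the other 8 tumors.

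Skeletal muscle RNA moved with the groups. The summed level of 16 muscle genes was 1226 CPM in Medusa, 494 in Ohio, 581 in Grilka and 125 in Zelda, against 394 to 39346 CPM (median 8376) in WT. The lowest WT tumor was N42 R femur, which lay within the floxed range, and the other WT tumors lay above it. All 16 members had a fold change below 0, with a median of −4.47 on the log2 scale. Low muscle content helped to choose the floxed tumors, so the difference is no result, but genes shared with muscle are marked below where they occur.

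Markers of the labeled tumor type were present in both groups. The 24 osteoblast lineage genes summed to 47780.1 CPM in Medusa, 31827 in Ohio, 70853 in Grilka and 15404 in Zelda, against 6376 to 105977 CPM (median 71075) in WT. N215 was lowest of the 11 tumors and Zelda the second lowest. The median log2 fold change of this list, floxed over WT, was −0.21, beside −0.0014 for all 17295 genes tested.

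The counts of the targeted gene did not check the labels. Arid1a stood at 260.2 CPM in Medusa, 211 in Ohio, 295 in Grilka and 183 in Zelda, and at 141 to 258 CPM (median 181) in WT. The groups overlapped, and the level was not lower in floxed (log2 fold change 0.36, SE 0.23, adjusted p = 0.344). The counts cover the whole gene, so reads from exons outside the deleted part, and from cells without recombination, are included. By reverse transcription PCR on tumor RNA, the study reported significantly less Arid1a in floxed than in WT tumors. It does not say whether these were the tumors sequenced here. Trp53 (log2 fold change 0.30, adjusted p = 0.482) and Rb1 (log2 fold change 0.58, adjusted p = 0.311), which carry floxed alleles in both groups, did not pass either. Rb1 was at 179 CPM in Zelda and at 51.8 to 55.7 CPM in the other floxed tumors, which placed Zelda above every WT tumor.

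Of 17295 genes tested with edgeR, 1195 passed an adjusted p of 0.05, a share of 6.91%. In floxed tumors 640 were higher (3.7%) and 555 lower (3.21%). The values of all 4 floxed tumors lay outside the range of all 7 WT tumors for 910 genes (5.26%), and 583 of these also passed the threshold (3.37%). This fit treats tumors of a single mouse as separate samples, although within the WT group they resembled each other: the correlation within a mouse was 0.596 over all genes. When counts were summed per mouse, giving 4 floxed against 3 WT mice, 18 of 15733 genes passed (0.114%), 2 higher (0.0127%) and 16 lower (0.102%), and 1791 had an unadjusted p under 0.05. All 18 had been called over tumors. Of the 1130 called genes that could be tested per mouse, 1130 kept their sign and 1018 had an unadjusted p under 0.05. The sums per mouse hold the same counts in which these genes were called, so this is no independent check. With the mouse as a random effect in limma-voom, 15 genes passed (0.0867%). DESeq2 called 14.6% of the genes to which it gave an adjusted p. Shares of all genes called higher and lower, against which the counts for lists below may be read, were 2.91% and 2.93% with all 8 floxed tumors (5.84% in all), 0.406% and 0.306% without Medusa (0.712%), 2.85% and 1.94% without Grilka (4.79%), 0.156% and 0.237% with a ribosomal RNA covariate (0.393%), 8.36% and 7.36% without N215 (15.7%), and 1.78% and 0.628% without Medusa and Grilka (2.4%). Below, calls refer to the fit over 11 tumors unless the mouse is named, and their p-values measure in part the spread between tumors of the same mouse.

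**Figure D1:**
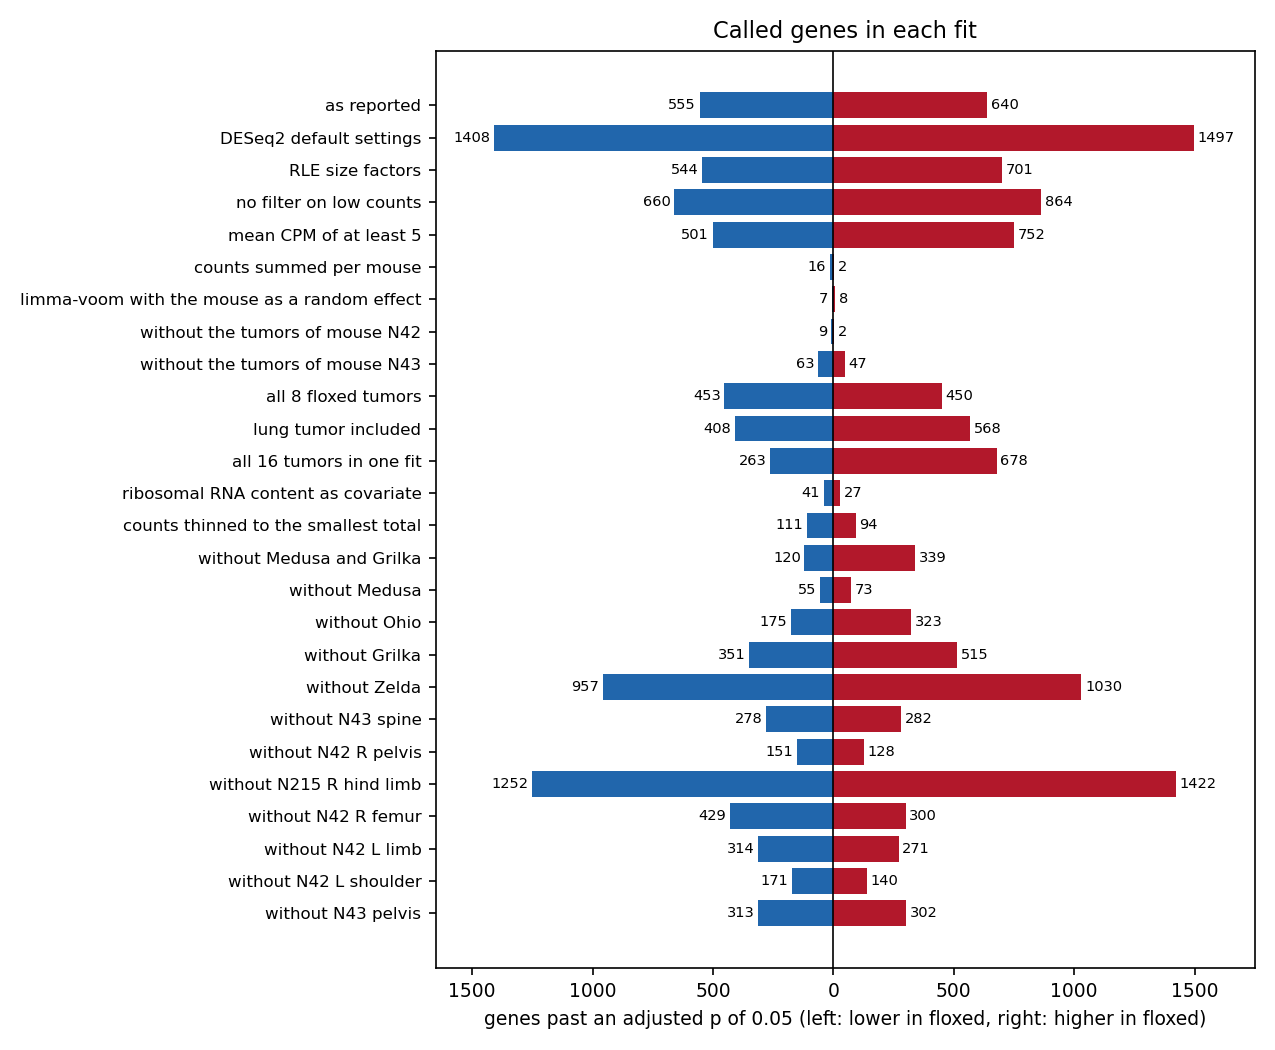
Number of genes past an adjusted p of 0.05 in each fit, with genes lower in floxed to the left of 0 and genes higher in floxed to the right. The count of 1195 fell to 18 with counts summed per mouse and to 11 without the 4 tumors of N42, and rose to 2674 without N215.

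The 18 genes called per mouse were Gria2 and Rps3a3, both higher, and Gm15459, Cyp26b1, Gm8730, Dpep1, Dkk3, Gm4735, Fndc1, Strc, Trim63, Ecrg4, Cilp, Svep1, Pdpn, Itgbl1, Megf6 and Fxyd6, all lower. Rps3a3, Gm15459, Gm8730 and Gm4735 are processed pseudogenes. Cilp and Svep1 encode matrix proteins, Pdpn a membrane glycoprotein of mesenchymal and lymphatic cells, and Trim63 a ubiquitin ligase of muscle.

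The leading protein-coding gene in each direction is shown here with its promoter, 250 bases before to 50 bases after the start of transcription, from RefSeq for GRCm38.p6. The sequences are given 5′ to 3′ on the strand of the gene in lower case, with matches to the AP-1 motif TGANTCA or the CCAAT box, searched on both strands, in capitals. AP-1 is a Jun and Fos dimer that directs remodelers to enhancers, and the CCAAT box is bound by NF-Y, common in genes of dividing cells. The promoter of Gria2 at chr3:80802786-80803085, on the minus strand, held neither motif, and that of Adssl1 at chr12:112619797-112620096, on the plus strand, held 1 AP-1 match starting at base 86, where the motif reads alike on both strands.
Gria2: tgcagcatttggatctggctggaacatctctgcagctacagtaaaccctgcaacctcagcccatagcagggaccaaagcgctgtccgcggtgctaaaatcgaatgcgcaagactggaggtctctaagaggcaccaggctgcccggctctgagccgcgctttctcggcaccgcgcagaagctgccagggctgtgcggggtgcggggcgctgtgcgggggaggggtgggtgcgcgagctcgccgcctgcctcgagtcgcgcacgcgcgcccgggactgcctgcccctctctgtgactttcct
Adssl1: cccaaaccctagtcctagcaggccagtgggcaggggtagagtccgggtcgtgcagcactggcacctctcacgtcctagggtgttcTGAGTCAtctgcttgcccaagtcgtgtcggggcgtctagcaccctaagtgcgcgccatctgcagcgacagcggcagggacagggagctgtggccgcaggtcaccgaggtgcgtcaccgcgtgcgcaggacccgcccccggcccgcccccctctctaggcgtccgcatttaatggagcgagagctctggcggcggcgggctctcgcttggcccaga

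An AP-1 match was found in 5.15% of 10940 promoters of protein-coding genes tested, in 1.82% of 384 promoters of genes higher in floxed and in 6.57% of 396 promoters of genes lower in floxed. CCAAT was found in 38.8%, 38.5% and 40.4% of the same promoters. These shares describe letters in the promoter window only.

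Gria2, a subunit of AMPA-type glutamate receptors, led the protein-coding genes higher in floxed tumors. It stood at 16.5 CPM in Medusa, 21.4 in Ohio, 8.8 in Grilka and 10.9 in Zelda, and at 0.0655 to 0.495 CPM (median 0.347) in WT. Every floxed tumor was above every WT tumor, where the gene was barely detected. The difference passed over tumors (log2 fold change 5.66, SE 0.52, adjusted p = 0.000336), per mouse (adjusted p = 0.040) and in all 23 alternatives in which the gene was tested. No WT tumor reached the 0.707 CPM that the filter on low counts required in 4 tumors, so Gria2 entered the test only through the group in which it was high. This held for 12 of the 640 genes called higher, and for 76 of the 555 called lower no floxed tumor reached that level. In the floxed tumors left out, Gria2 was at 0 CPM in Massa and Prince, 0.254 in Montana and 0.276 in Oregon on the scale of all 16 tumors. These 4 lay within or below the WT range, and with all 8 it did not pass the filter.

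The other 11 protein-coding genes at the head of the higher list had adjusted p between 0.00387 and 0.0139, and none passed per mouse. With all 8 floxed tumors Gm4737, Hdhd3, Zfp1, Alad and E2f4 were still called, and Hmgxb4, Gucy1b1, Rbm12b2, Col24a1, A630089N07Rik and Lig1 were not (adjusted p between 0.051 and 0.383). Col24a1, a fibrillar collagen made by bone-forming cells, was at 227 CPM in Medusa, 438 in Ohio, 720.0 in Grilka and 72 in Zelda, and at 9.52 to 53 CPM (median 25.8) in WT (log2 fold change 3.45, SE 0.55, adjusted p = 0.012). Its floxed values spread widely, and the lowest, in Zelda, was still above the highest WT tumor. Alad, the second enzyme of heme synthesis, was at 34.8 CPM in Medusa, 17.2 in Ohio, 32.3 in Grilka and 83.3 in Zelda, and at 4.74 to 10.9 CPM (median 8.06) in WT (log2 fold change 2.43, SE 0.39, adjusted p = 0.0121). Hdhd3, a phosphatase-like protein and the gene next to Alad on chromosome 4 (chr4:62499008-62503467, with Alad at chr4:62509169-62519918), was at 4.7 CPM in Medusa, 4.09 in Ohio, 8.8 in Grilka and 2.57 in Zelda, and at 0.385 to 0.849 CPM (median 0.60) in WT (log2 fold change 2.95, SE 0.43, adjusted p = 0.00751). Both ran higher in every floxed tumor. None of the 8 tested genes nearest to the pair passed, with log2 fold changes from −0.96 for Slc31a1 to 1.21 for Wdr31 (adjusted p = 0.395), which is next to Hdhd3, and 0.05 for Pole3 (adjusted p = 0.941), which is next to Alad.

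E2f4, an E2F factor that represses genes in resting cells together with RB family proteins, was at 38.8 CPM in Medusa, 40.3 in Ohio, 58.7 in Grilka and 59.6 in Zelda, and at 16.1 to 23.3 CPM (median 20.5) in WT (log2 fold change 1.30, SE 0.22, adjusted p = 0.0139). Hmgxb4, an HMG-box protein, was at 64 CPM in Medusa, 53.9 in Ohio, 79.2 in Grilka and 31.6 in Zelda, and at 17.9 to 22.4 CPM (median 20.3) in WT (log2 fold change 1.47, adjusted p = 0.0127). Zfp1, a zinc finger protein, was at 20.5 CPM in Medusa, 18.5 in Ohio, 24.9 in Grilka and 16.2 in Zelda, and at 5.76 to 7.69 CPM (median 6.61) in WT (log2 fold change 1.59, adjusted p = 0.012). These 3 genes lie on chromosome 8, where 8.47% of 862 genes tested were called higher, the highest share of any chromosome. Gucy1b1, a subunit of the receptor for nitric oxide, was at 60.9 CPM in Medusa, 39.4 in Ohio, 41.1 in Grilka and 30.9 in Zelda, and at 6.36 to 21.7 CPM (median 9.35) in WT (log2 fold change 1.93, adjusted p = 0.0139). Rbm12b2, an RNA-binding protein, had a log2 fold change of 1.61 (adjusted p = 0.012), and the predicted genes Gm4737 and A630089N07Rik of 4.98 (adjusted p = 0.00387) and 2.26 (adjusted p = 0.00751). No WT tumor reached the filter level for Gm4737, so like Gria2 it entered the test only through the group in which it was high. Lig1, the ligase that joins Okazaki fragments, was at 98.6 CPM in Medusa, 70.0 in Ohio, 88 in Grilka and 46.2 in Zelda, and at 20.3 to 38.5 CPM (median 22.9) in WT. As a replication gene it is of a kind with the genes that chose the floxed tumors, so it is given as a description.

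Adssl1, the muscle form of an enzyme of AMP synthesis, led the protein-coding genes lower in floxed. It stood at 5.88 CPM in Medusa, 3.67 in Ohio, 8.8 in Grilka and 4.38 in Zelda, and at 22.5 to 42.6 CPM (median 35.6) in WT. The ranges did not overlap (log2 fold change −2.70, SE 0.31, adjusted p = 0.0016). The call was lost per mouse (adjusted p = 0.0668), and with all 8 floxed tumors, which include the muscle-rich Montana and Oregon, the log2 fold change turned to 1.78. Whether muscle RNA had a part in the lower level was not tested.

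Dkk3, a secreted protein of the Dickkopf family, was at 10.4 CPM in Medusa, 4.19 in Ohio, 13.2 in Grilka and 9.51 in Zelda, and at 51.2 to 116 CPM (median 85.7) in WT. The highest floxed tumor was well below the lowest WT tumor (log2 fold change −3.24, SE 0.38, adjusted p = 0.00188), and the call held per mouse (adjusted p = 0.040) and with all 8 floxed tumors (adjusted p = 9.45e-05). Cyp26b1, which breaks down retinoic acid, was at 4.23 CPM in Medusa, 5.34 in Ohio, 11.7 in Grilka and 3.93 in Zelda, and at 28.8 to 193 CPM (median 89.1) in WT (log2 fold change −4.17, SE 0.56, adjusted p = 0.00443). It also held per mouse (adjusted p = 0.0379) and with all 8 floxed tumors (adjusted p = 0.00392). Dpep1, a membrane dipeptidase, was at 2.35 CPM in Medusa, 2.41 in Ohio, 1.47 in Grilka and 1.06 in Zelda, and at 13.6 to 80.0 CPM (median 27.4) in WT (log2 fold change −4.36, SE 0.61, adjusted p = 0.00506). It held per mouse (adjusted p = 0.040) but not with all 8 floxed tumors (adjusted p = 0.607). With the mouse as a random effect none of the 3 was called (adjusted p = 0.0669 for Dkk3, 0.168 for Cyp26b1 and 0.231 for Dpep1).

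Several leading lower genes encode secreted proteins of stroma and matrix. Tgfbi, a matrix protein induced by TGF-beta, was at 32.9 CPM in Medusa, 30.8 in Ohio, 41.1 in Grilka and 56.8 in Zelda, and at 128 to 203 CPM (median 162) in WT (log2 fold change −2.05, SE 0.26, adjusted p = 0.00301). Fstl1, a secreted follistatin-like glycoprotein, was at 112 CPM in Medusa, 94.2 in Ohio, 68.9 in Grilka and 148 in Zelda, and at 326 to 997 CPM (median 658) in WT (log2 fold change −2.61, SE 0.39, adjusted p = 0.00857). Islr, a surface protein of mesenchymal stromal cells, was at 12.7 CPM in Medusa, 2.2 in Ohio, 7.33 in Grilka and 4.98 in Zelda, and at 55.4 to 188 CPM (median 133) in WT (log2 fold change −4.10, SE 0.57, adjusted p = 0.00506). For all 3 the groups did not overlap, and per mouse the adjusted p were 0.0754, 0.0564 and 0.0564. Pappa2, a protease that cleaves IGF-binding proteins, was at 0.47 CPM in Medusa, 0.21 in Ohio, 0 in Grilka and 0.377 in Zelda, and at 4.7 to 17.5 CPM (median 7.14) in WT (log2 fold change −4.67, adjusted p = 0.00408). Its floxed values were at or below 0.47 CPM, and no floxed tumor reached the filter level. Fcrls, an Fc receptor-like protein of macrophages and microglia, was at 5.18 CPM in Medusa, 4.09 in Ohio, 2.93 in Grilka and 2.26 in Zelda, and at 16.6 to 30.9 CPM (median 24.3) in WT (log2 fold change −2.66, adjusted p = 0.00317). Mcub, a subunit that dampens the mitochondrial calcium uniporter, had a log2 fold change of −2.82 (adjusted p = 0.00967). Gm9008, a predicted gene, had no count in any floxed tumor and 2.37 to 4.13 CPM (median 3.35) in WT. Against a floor of 3 counts per library it was at least 2.31-fold lower.

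**Figure D2:**
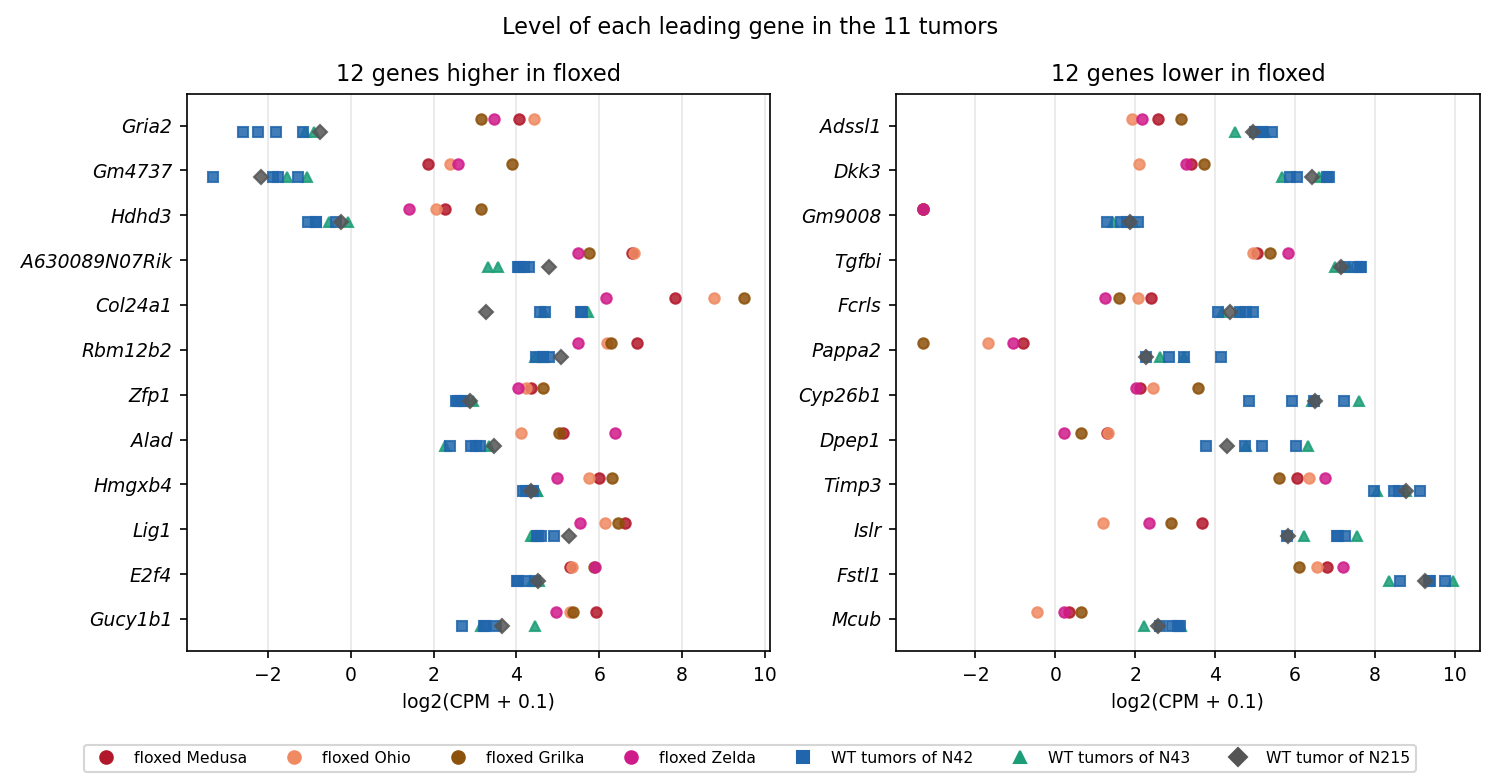
Level of the 12 protein-coding genes with the smallest adjusted p in each direction, as log2 of CPM plus 0.1, with circles for the 4 floxed tumors and squares, triangles and a diamond for WT tumors of mice N42, N43 and N215. The floxed and WT values of each gene do not overlap, as the rule for these genes requires, and Gria2 shows the widest gap among the higher genes.

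Processed pseudogenes, spliced copies of other genes put back into the genome, included differences that passed in every alternative. Rps3a3 was at 59.5 CPM in Medusa, 230.4 in Ohio, 218 in Grilka and 159 in Zelda, and at 0.667 to 1.24 CPM (median 0.81) in WT (log2 fold change 7.56, SE 0.38, adjusted p = 6.58e-07). Gm15459 was at 4.94 CPM in Medusa, 5.13 in Ohio, 2.93 in Grilka and 4.61 in Zelda, and at 63.1 to 96.5 CPM (median 82.9) in WT (log2 fold change −4.16, SE 0.26, adjusted p = 5.49e-06). Gm8730 was at 2.12 CPM in Medusa, 4.5 in Ohio, 4.4 in Grilka and 2.42 in Zelda, and at 23.9 to 49.5 CPM (median 33) in WT (log2 fold change −3.44, SE 0.35, adjusted p = 0.000658). These 3 passed in all 25 alternatives, the count per mouse included (adjusted p = 0.00757, 0.00757 and 0.040). Gm10036 was at 10.1 CPM in Medusa, 24.8 in Ohio, 17.6 in Grilka and 14.2 in Zelda, and at 0.607 to 1.37 CPM (median 1.04) in WT (log2 fold change 3.94, adjusted p = 0.000336; per mouse, adjusted p = 0.0564). Reads of such copies can be shared with their near-identical parents, so these levels are uncertain. Rps3a1, the expressed gene of the Rps3a family, had a log2 fold change of −0.85 (adjusted p = 0.103). Of 519 processed pseudogenes tested, 38 were called higher (7.32%) and 15 lower (2.89%). Of the 38, 19 were highest in Grilka and 15 in Medusa, the libraries richest in ribosomal RNA, and 10 were still called without both. The summed level of the class ran higher in every floxed tumor, from 1228 CPM in Zelda to 1805 in Grilka, against 962 to 1211 CPM (median 1114) in WT. In Zelda this rests on Rps3a3, whose 159 CPM exceed the gap to the highest WT tumor. Without that gene the Zelda sum would lie within the WT range.

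Of 97 small nucleolar RNAs, which guide chemical modification of ribosomal RNA, 32 were called, all higher in floxed. Of 63 small nuclear RNAs, among them the RNA parts of the splicing machinery, 21 were called, again all higher. Nucleolar RNAs summed to 2239.7 CPM in Medusa, 2337 in Ohio, 6271 in Grilka and 2693 in Zelda, against 616 to 2054 CPM (median 705) in WT, where N215 was highest. Nuclear RNAs summed to 18138, 5507, 154665 and 5747 CPM in the same order, against 776 to 5337 CPM (median 1329) in WT. Grilka was the highest tumor for 26 of the 32 and 16 of the 21 called genes. Without Medusa and Grilka, 5 of the 32 and 0 of the 21 were still called. Residual ribosomal RNA, highest in Grilka and Medusa, moved with both classes, and its part in the difference was not tested.

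The gene lists below are described by counts of called members and by medians, which may be read beside the 6.91% called and the median of −0.0014 over all genes. Counts at an unadjusted p under 0.05 may be read beside 4604 of 17295 genes over the 11 tumors and 1791 of 15733 per mouse. Over all genes, such counts are not given for the other fits. There, the counts for lists give a direction only and cannot be set against a share of all genes. Per mouse, Dkk3 was the single member called in any list. With the ribosomal RNA covariate 7 members of the lists below were called, 1 in each of 7 lists, all lower. Members outside the rule for named genes are given where they complete a count, and were chosen after their values were seen. Of 23 proteoglycan and matrix glycoprotein genes, 5 were called lower and 0 higher, with a median log2 fold change of −1.98. They summed to 3793 CPM in Medusa, 2300.3 in Ohio, 4128 in Grilka and 1865 in Zelda, against 5065 to 18826 CPM (median 8178) in WT. All 4 floxed tumors were below all 7 WT tumors on this sum, and N215 was the lowest of WT. Thbs2, a thrombospondin that binds collagen and restrains vessel growth, was at 78.3 CPM in Medusa, 36.9 in Ohio, 82.1 in Grilka and 136 in Zelda, and at 254 to 1706 CPM (median 759) in WT (log2 fold change −3.18, SE 0.59, adjusted p = 0.0174). Mgp, an inhibitor of calcification, was at 52.9 CPM in Medusa, 26.2 in Ohio, 29.3 in Grilka and 12.9 in Zelda, and at 70.9 to 318 CPM (median 237) in WT (log2 fold change −2.73, SE 0.53, adjusted p = 0.0177). Fbln1, a glycoprotein of elastic fibers and basement membranes, was at 14.6 CPM in Medusa, 18.3 in Ohio, 14.7 in Grilka and 4.15 in Zelda, and at 24.9 to 696 CPM (median 82.6) in WT (log2 fold change −3.88, SE 0.91, adjusted p = 0.0304). Each of the 3 was lower in every floxed tumor than in any WT tumor. Aspn (log2 fold change −3.10, adjusted p = 0.0253) and Prelp (log2 fold change −2.41, adjusted p = 0.0483), small leucine-rich proteoglycans, were the other calls. With all 8 floxed tumors 11 members were called lower, without Medusa 1, and per mouse 0, with 14 at an unadjusted p under 0.05.

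Of 23 collagen and crosslinking genes, 3 were called lower and 1, Col24a1, higher (median log2 fold change −1.41). The 3 lower calls were enzymes that modify lysines of matrix proteins. Plod1, a lysyl hydroxylase, was at 71.5 CPM in Medusa, 45.3 in Ohio, 63.1 in Grilka and 32.3 in Zelda, and at 96 to 199 CPM (median 160.1) in WT (log2 fold change −1.5, SE 0.30, adjusted p = 0.0188). Loxl2, a lysyl oxidase, was at 37.2 CPM in Medusa, 28.8 in Ohio, 45.5 in Grilka and 13.6 in Zelda, and at 59.5 to 285 CPM (median 196) in WT (log2 fold change −2.39, SE 0.57, adjusted p = 0.0313), and its relative Loxl1 also passed (log2 fold change −2.19, adjusted p = 0.0242). All 3 were lower in every floxed tumor. The sum of the list was 12956 CPM in Medusa, 5679 in Ohio, 15137 in Grilka and 4249 in Zelda, against 7865 to 45322 CPM (median 20953) in WT, and here the groups overlapped, with N42 L limb, N43 pelvis and N215 within the floxed range.

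Of 23 genes for matrix proteases and their inhibitors, 8 were called lower and 0 higher (median −1.69). Timp3, an inhibitor of metalloproteases bound to the matrix, was at 66.1 CPM in Medusa, 81 in Ohio, 48.4 in Grilka and 107 in Zelda, and at 253 to 557 CPM (median 390.4) in WT (log2 fold change −2.34, SE 0.32, adjusted p = 0.00506). With all 8 floxed tumors its call was lost (adjusted p = 0.494). Timp2, an inhibitor that also helps to activate Mmp2, was at 89.4 CPM in Medusa, 88.4 in Ohio, 185 in Grilka and 81.8 in Zelda, and at 163 to 902 CPM (median 634) in WT (log2 fold change −2.34, SE 0.46, adjusted p = 0.0194). Mmp2, a gelatinase made by stromal cells, was at 182 CPM in Medusa, 118 in Ohio, 128 in Grilka and 86.8 in Zelda, and at 128 to 1497 CPM (median 662) in WT (log2 fold change −2.33, SE 0.60, adjusted p = 0.0385). Timp2 and Mmp2 overlapped at their edges, and in both N215 was the lowest WT tumor. Proteases and inhibitors were called in the same direction: the serine proteases Htra1 (log2 fold change −3.23, adjusted p = 0.0232), Htra3 (log2 fold change −2.69, adjusted p = 0.0174) and Plat (log2 fold change −3.10, adjusted p = 0.0232), the metalloprotease Mmp19 (log2 fold change −2.56, adjusted p = 0.0285) and the inhibitor Tfpi2 (log2 fold change −2.04, adjusted p = 0.0387) were also called. Without Medusa 1 member was called lower, and per mouse 0, with 10 at an unadjusted p under 0.05.

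Members of the Wnt pathway were called lower among ligands and antagonists alike. Wnt proteins bind Frizzled receptors and stabilize beta-catenin, and in bone they drive osteoblast formation. Of 19 ligands and receptors, 5 were called lower and 0 higher (median −2.05). Among ligands these were Wnt11 (log2 fold change −3.15, adjusted p = 0.0287) and Wnt2b (log2 fold change −2.30, adjusted p = 0.0339). Among receptors, Fzd1 was at 24.2 CPM in Medusa, 12.3 in Ohio, 39.6 in Grilka and 29.4 in Zelda, and at 22.3 to 749 CPM (median 282) in WT (log2 fold change −3.42, SE 0.79, adjusted p = 0.0284). Ror1, a receptor of noncanonical Wnt signals, was at 10.6 CPM in Medusa, 2.72 in Ohio, 1.47 in Grilka and 4.23 in Zelda, and at 24.3 to 74.9 CPM (median 35.8) in WT (log2 fold change −3.10, SE 0.52, adjusted p = 0.014). Fzd7 was at 8.47 CPM in Medusa, 23.8 in Ohio, 1.47 in Grilka and 15 in Zelda, and at 23.3 to 116 CPM (median 44.5) in WT (log2 fold change −2.08, adjusted p = 0.0426). Ror1 was lower in every floxed tumor, whereas N215 lay within the floxed range for Fzd1, and Ohio just within the WT range for Fzd7.

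Of 19 Wnt antagonists and target genes, 6 were called lower and 1 higher (median −1.47). Beside Dkk3, the antagonists Notum, an enzyme that removes the lipid of Wnt proteins, and Sfrp1, a decoy receptor, were lower. Notum was at 1.18 CPM in Medusa, 2.51 in Ohio, 0 in Grilka and 2.04 in Zelda, and at 3.27 to 73 CPM (median 37.7) in WT (log2 fold change −4.42, SE 0.77, adjusted p = 0.0159). Sfrp1 was at 3.29 CPM in Medusa, 2.41 in Ohio, 10.3 in Grilka and 11.2 in Zelda, and at 11.8 to 193 CPM (median 72.2) in WT (log2 fold change −3.57, SE 0.86, adjusted p = 0.0323). Dkk1, an antagonist that binds the coreceptor Lrp6, went the other way: it was at 2.82 CPM in Medusa, 25 in Ohio, 7.33 in Grilka and 1.21 in Zelda, and at 0.0623 to 1.73 CPM (median 0.728) in WT (log2 fold change 3.65, SE 0.81, adjusted p = 0.0259). Zelda was within the WT range for Dkk1, and Ohio was the highest tumor. The Dickkopf receptor Kremen1 (log2 fold change −1.78, adjusted p = 0.0299) and the pathway targets Axin2 (log2 fold change −1.46, adjusted p = 0.0292) and Ccnd1 (log2 fold change −1.47, adjusted p = 0.0451) were lower. Ccnd1, the cyclin of G1 entry, stood at 73.9 CPM in Medusa, 82.4 in Ohio, 106 in Grilka and 42.2 in Zelda, and at 96.1 to 323 CPM (median 209.9) in WT. Grilka lay within the WT range. Without Medusa 1 member of the first list and 1 of the second were called lower.

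TGF-beta and BMP proteins steer matrix production and bone formation. Of 27 genes of these pathways, 6 were called lower and 0 higher (median −0.46). The receptors Tgfbr2 (log2 fold change −1.45, adjusted p = 0.0294) and Tgfbr3 (log2 fold change −2.43, adjusted p = 0.0232), the ligand Tgfb3 (log2 fold change −1.89, adjusted p = 0.0458), the BMP antagonist Nog (log2 fold change −3.61, adjusted p = 0.0456) and the BMP receptor Bmpr2 were among them. Ltbp1, which anchors latent TGF-beta in the matrix, was at 45.9 CPM in Medusa, 38.4 in Ohio, 66 in Grilka and 40.7 in Zelda, and at 102 to 565 CPM (median 267) in WT (log2 fold change −2.6, SE 0.42, adjusted p = 0.0127). Bmpr2 was at 195 CPM in Medusa, 259 in Ohio, 199 in Grilka and 221 in Zelda, and at 372 to 825 CPM (median 455) in WT (log2 fold change −1.14, SE 0.28, adjusted p = 0.0346). For Ltbp1 and Bmpr2 the groups did not overlap. Of 21 genes of the insulin-like growth factor axis and imprinted growth genes, 3 were called lower and 0 higher (median −1.28). Of the first list 1 member was called lower without Medusa and 0 per mouse, with 9 at an unadjusted p under 0.05. Of the second list 0 were called by edgeR per mouse, without Medusa, or without Medusa and Grilka, with 8, 5 and 7 lower at an unadjusted p under 0.05. Igfbp4 was at 78.6 CPM in Medusa, 52 in Ohio, 103 in Grilka and 84.3 in Zelda, and at 182 to 830.1 CPM (median 303) in WT (log2 fold change −2.26, SE 0.45, adjusted p = 0.0188), and Igfbp3 was lower too (log2 fold change −1.82, adjusted p = 0.0245). Both encode binding proteins that hold IGF in the extracellular space. Hmga2, a chromatin protein of fetal and tumor cells, was at 0.706 CPM in Medusa, 2.83 in Ohio, 1.47 in Grilka and 0.453 in Zelda, and at 2.31 to 93.1 CPM (median 17) in WT (log2 fold change −4.72, adjusted p = 0.045). Its WT values differed within mouse N42 itself, from 2.31 CPM in R femur to 68 in L limb.

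Of 24 mesenchymal genes, 4 were called lower and 0 higher (median −1.03). The calls were Tgfbi and Fstl1, described above, the fibronectin receptor chain Itga5 (log2 fold change −1.36, adjusted p = 0.0383) and Prrx1, a transcription factor of limb and bone mesenchyme. Prrx1 was at 200.4 CPM in Medusa, 79 in Ohio, 238 in Grilka and 198 in Zelda, and at 152 to 835 CPM (median 632) in WT (log2 fold change −1.68, SE 0.46, adjusted p = 0.0453). The lowest WT tumor for Prrx1 was again N215, inside the floxed range.

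Many macrophage genes were lower in floxed tumors. Of 25 members, 13 were called lower and 1 higher, and the median log2 fold change was −1.83. The list summed to 675 CPM in Medusa, 726 in Ohio, 761 in Grilka and 1631 in Zelda, against 1121 to 4599 CPM (median 3732) in WT. In WT the lowest tumor was N215, which lay below Zelda, and the other 6 were above every floxed tumor. Mrc1, the mannose receptor of tissue macrophages, was at 37.9 CPM in Medusa, 51.9 in Ohio, 70.4 in Grilka and 144 in Zelda, and at 145 to 512 CPM (median 391) in WT (log2 fold change −2.31, SE 0.44, adjusted p = 0.0174). Csf1r, the receptor of the macrophage growth factor CSF1, was at 124 CPM in Medusa, 104 in Ohio, 60.1 in Grilka and 139 in Zelda, and at 77.7 to 548 CPM (median 308) in WT (log2 fold change −1.68, SE 0.46, adjusted p = 0.0456). C1qc, a chain of the complement starter C1q, was at 15.5 CPM in Medusa, 40.5 in Ohio, 39.6 in Grilka and 70.3 in Zelda, and at 59.5 to 348 CPM (median 244) in WT (log2 fold change −2.46, SE 0.51, adjusted p = 0.0215). Cx3cr1, the fractalkine receptor, went the other way, at 28.7 CPM in Medusa, 26.6 in Ohio, 120.2 in Grilka and 32.6 in Zelda, and at 3.37 to 29.5 CPM (median 5.55) in WT (log2 fold change 2.36, SE 0.62, adjusted p = 0.0414). In bulk RNA, fewer cells of a type and less RNA per cell cannot be told apart. With all 8 floxed tumors 21 of the 25 were called lower and 1 higher. Without N215 23 were lower. Without Medusa 0 were called by edgeR, with 22 lower at an unadjusted p under 0.05. Per mouse 0 were called, with 18 lower at an unadjusted p under 0.05. Without Medusa and Grilka 0 were called, with 17 lower at an unadjusted p under 0.05, and the median was −1.52. With the ribosomal RNA covariate 0 were called, with 11 lower at an unadjusted p under 0.05, and the median was −1.03.

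Complement genes followed in part: of 15, 4 were called lower and 1 higher (median −1.56). C3ar1, the receptor of the C3a fragment on myeloid cells, was at 9.88 CPM in Medusa, 19.7 in Ohio, 5.87 in Grilka and 16.6 in Zelda, and at 30.9 to 83.6 CPM (median 67.3) in WT (log2 fold change −2.19, SE 0.35, adjusted p = 0.0127). C5ar1, its counterpart for C5a, was lower too (log2 fold change −2.97, adjusted p = 0.0159), as were the protease C1ra (log2 fold change −1.65, adjusted p = 0.0245) and the inhibitor Serping1 (log2 fold change −2.49, adjusted p = 0.0368). Cd55, which protects cells from complement, was higher (log2 fold change 2.82, adjusted p = 0.0398), most of all in Zelda at 160.1 CPM. Without Medusa 1 member was called lower.

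Other lists of immune and vessel genes gave few or no calls. Of 8 MHC class II genes, which present antigen, 0 were called by edgeR or by DESeq2, with 4 higher at an unadjusted p under 0.05 and a median of 1.20. That median rests on Zelda: without it, it was −0.33, with 0 higher and 1 lower at an unadjusted p under 0.05. Cd74, the chaperone of class II molecules, was at 79.7 CPM in Medusa, 128 in Ohio, 66 in Grilka and 688 in Zelda, and at 49.5 to 376 CPM (median 106) in WT (log2 fold change 0.76, SE 0.66, adjusted p = 0.496). Zelda, which also held lymphoid RNA, was the highest tumor, and without it the log2 fold change was −0.66. Of 12 MHC class I genes 0 were called by edgeR and 2 by DESeq2, with 3 lower at an unadjusted p under 0.05. Of 23 interferon-stimulated genes 0 were called by edgeR or DESeq2, with 1 higher at an unadjusted p under 0.05. Of 15 endothelial genes 0 were called by edgeR and 2 by DESeq2, with 2 lower at an unadjusted p under 0.05. Cdh5, the cadherin of vessel walls, had a log2 fold change of −0.37 (SE 0.24). Of 11 pericyte and smooth muscle genes 2 were called lower. Rgs5, a pericyte marker, was at 92.7 CPM in Medusa, 56.5 in Ohio, 80.6 in Grilka and 49.7 in Zelda, and at 93.4 to 326 CPM (median 200.2) in WT (log2 fold change −1.62, SE 0.35, adjusted p = 0.0245), and Des, shared with skeletal muscle, was the other (log2 fold change −3.10, adjusted p = 0.0315).

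**Figure D3:**
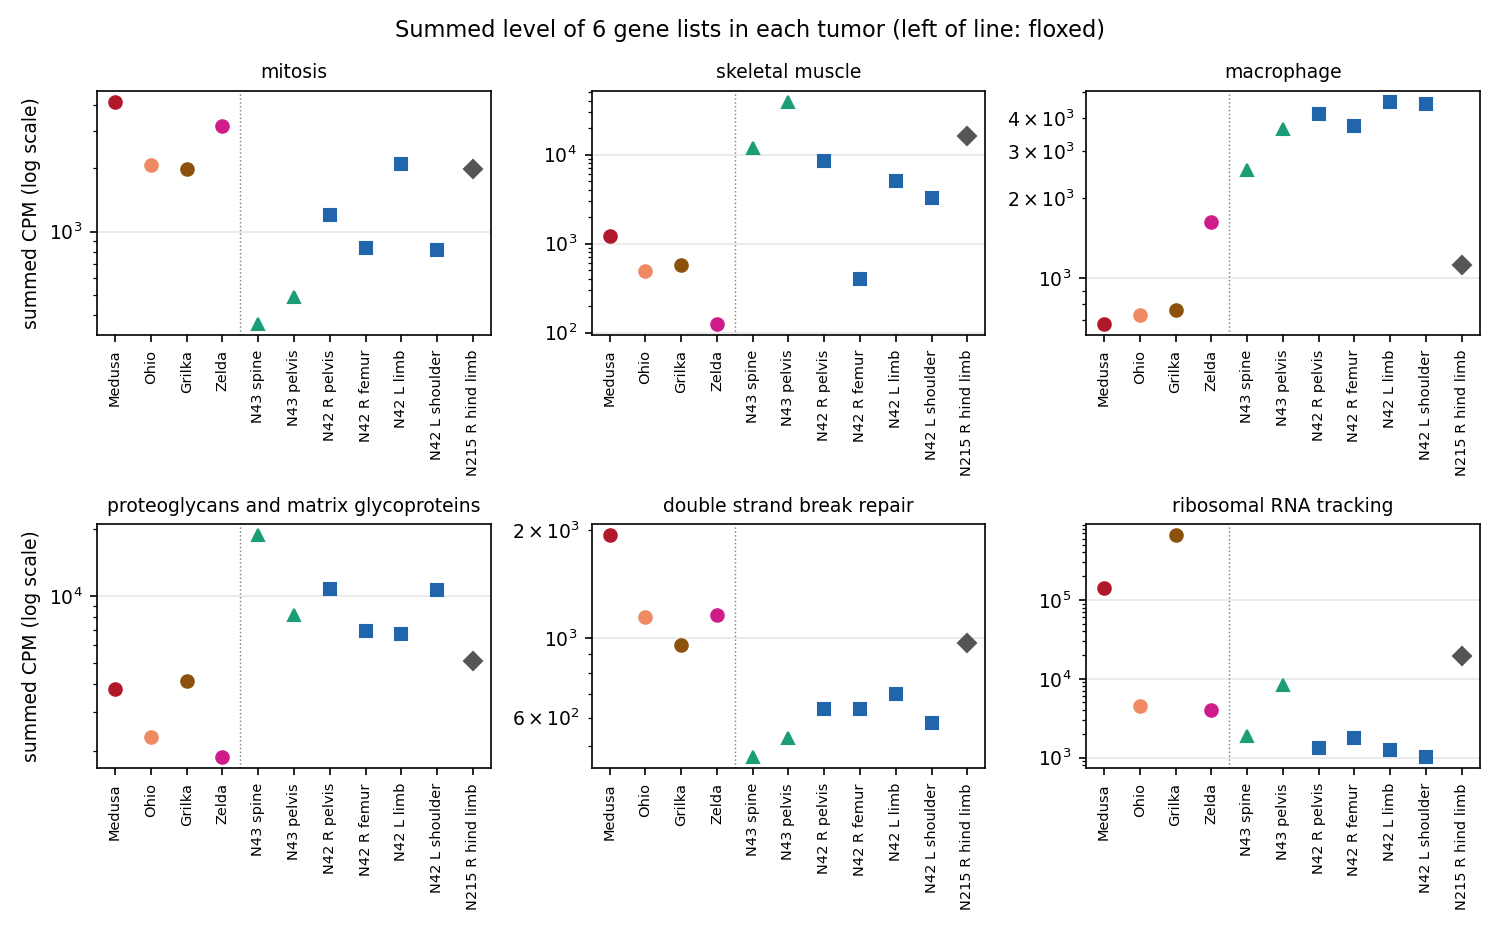
Summed CPM of 6 gene lists in each tumor on log axes, with the 4 floxed tumors left of the dotted line and circles, squares, triangles and diamonds as in the plot of leading genes. Proteoglycan sums are lower in floxed than in all 7 WT tumors and macrophage sums lower than in 6 of them, while N215 lies among the floxed tumors on macrophage and double-strand break repair genes, and N42 L limb on mitosis.

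The bone lineages gave few calls. Of 24 osteoblast lineage genes 1 was called higher, Mepe, a matrix protein of osteocytes, at 3.06 CPM in Medusa, 130.4 in Ohio, 0 in Grilka and 0.151 in Zelda, and at 0 to 2.83 CPM (median 0.997) in WT (log2 fold change 4.90, SE 1.37, adjusted p = 0.0492). Only Ohio stood well above the WT range. Of 14 osteoclast genes 0 were called by edgeR and 1 by DESeq2, with 1 lower at an unadjusted p under 0.05 and a median of −0.84. Mmp9, a gelatinase of bone-resorbing cells, was at 881 CPM in Medusa, 476 in Ohio, 324 in Grilka and 17.1 in Zelda, and at 5.57 to 5017 CPM (median 1425) in WT (log2 fold change −2.11, SE 1.29, adjusted p = 0.322), and Ctsk, the collagen-cutting protease of osteoclasts, was at 538 CPM in Medusa, 373 in Ohio, 169 in Grilka and 30.7 in Zelda, and at 51.5 to 2291 CPM (median 699) in WT (log2 fold change −1.68, SE 0.91, adjusted p = 0.258). Both varied widely within each group. Of 14 cartilage genes 1 was called lower, Comp, a matrix protein of cartilage and tendon (log2 fold change −3.67, adjusted p = 0.0281). Of 28 Hox genes 1 was called lower, Hoxd9 at 0.47 CPM in Medusa, 0.21 in Ohio, 0 in Grilka and 0.377 in Zelda, and at 0.867 to 4.45 CPM (median 1.53) in WT (log2 fold change −2.70, adjusted p = 0.0392). No floxed tumor reached the filter level of 0.707 CPM for Hoxd9, so it entered the test only through WT. Hox genes mark body position, and the site of the floxed tumors is not given. Of 6 neuronal genes 0 were called by edgeR and 1 by DESeq2, with 2 lower at an unadjusted p under 0.05.

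Several DNA repair genes were higher in floxed tumors. Many repair genes are expressed with the cell cycle, so their direction is not independent of how the floxed tumors were chosen. Of 30 genes of double-strand break repair 5 were called higher, with a median of 1.04. The list summed to 1933 CPM in Medusa, 1147 in Ohio, 956 in Grilka and 1158 in Zelda, against 465 to 966 CPM (median 634) in WT, and N215 was the highest WT tumor. Xrcc6 and Xrcc5 encode the Ku proteins that bind broken ends. Xrcc6 was at 54.8 CPM in Medusa, 32.6 in Ohio, 35.2 in Grilka and 23.6 in Zelda, and at 7.97 to 21.8 CPM (median 12.6) in WT (log2 fold change 1.48, SE 0.31, adjusted p = 0.0232), and Xrcc5 followed (log2 fold change 1.30, adjusted p = 0.0383). Nbn, part of the complex that senses breaks, was at 62.1 CPM in Medusa, 32.2 in Ohio, 44 in Grilka and 26.5 in Zelda, and at 15.2 to 24.6 CPM (median 20.7) in WT (log2 fold change 1.00, SE 0.26, adjusted p = 0.0399). Rnf168, a ubiquitin ligase acting at breaks (log2 fold change 1.38, adjusted p = 0.0279), and Mdc1, a scaffold there (log2 fold change 0.99, adjusted p = 0.0469), were the other calls. Xrcc6 and Nbn were higher in every floxed tumor than in any WT tumor, while N215 overlapped the floxed group for the other 3. Without N215, 21 members were called higher and 1 lower. Without Medusa 0 were called by edgeR, with 14 higher at an unadjusted p under 0.05. Per mouse 0 were called, with 5 higher at an unadjusted p under 0.05. With all 8 floxed tumors 2 were higher and 1 lower.

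Of 34 other repair genes 5 were called higher (median 0.48). Parp1, which marks DNA nicks with poly-ADP-ribose, was at 146 CPM in Medusa, 119 in Ohio, 147 in Grilka and 89 in Zelda, and at 40.6 to 70.3 CPM (median 48.2) in WT (log2 fold change 1.29, SE 0.23, adjusted p = 0.0159). Ercc6, needed to repair transcribed genes, was at 134 CPM in Medusa, 75.7 in Ohio, 167 in Grilka and 54.7 in Zelda, and at 27.1 to 49 CPM (median 35.4) in WT (log2 fold change 1.56, SE 0.30, adjusted p = 0.0174). The groups did not overlap for either. Chek1, a checkpoint kinase (log2 fold change 1.5, adjusted p = 0.0338), Mutyh, a base excision glycosylase (log2 fold change 1.94, adjusted p = 0.0358), and Lig1 made up the count. Without Medusa 1 member was called.

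The study itself named a set of repair genes for these data. As they were picked on these samples, their directions are not independent evidence. Those called here were Parp1, Ercc6, Xrcc6, Xrcc5 and Nbn. Dclre1c, which encodes the nuclease Artemis, was at 12.7 CPM in Medusa, 20.7 in Ohio, 4.4 in Grilka and 32.1 in Zelda, and at 24.4 to 57 CPM (median 47.1) in WT, and missed the threshold (log2 fold change −1.30, SE 0.40, adjusted p = 0.063). It lay lower in 3 floxed tumors than in any WT tumor, and N215 was the lowest WT tumor, below Zelda. Dclre1c was the 1 member of the double-strand break list with a fold change below 0. That list held 1 lower call with all 8 floxed tumors, 1 without N215 and 1 without Zelda. The study called Dclre1c lower over its whole set of floxed and WT tumors, so the miss here is for another set of samples. Mus81 (log2 fold change 1.60, adjusted p = 0.060), Recql5 (log2 fold change 0.78, adjusted p = 0.0651) and Atrip (log2 fold change 0.87, adjusted p = 0.0815) had values above 0 that also missed it. Ercc2, Rad52 and Poll had adjusted p between 0.268 and 0.306.

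Some SWI/SNF subunits were called higher. Of 25 subunits 4 were called higher (median 0.26), a larger share than the 3.7% called higher over all genes. Smarca4, the ATPase BRG1, was at 514 CPM in Medusa, 279.9 in Ohio, 999 in Grilka and 118 in Zelda, and at 106 to 224 CPM (median 146) in WT (log2 fold change 1.66, SE 0.43, adjusted p = 0.0398). Smarcc2, a core scaffold, was at 455 CPM in Medusa, 176 in Ohio, 563 in Grilka and 121 in Zelda, and at 64.1 to 161 CPM (median 90.4) in WT (log2 fold change 1.72, SE 0.39, adjusted p = 0.0281). Medusa and Grilka were the highest tumors for both, and Zelda lay within the WT range. The bromodomain subunits Brd9 (log2 fold change 1.23, adjusted p = 0.0306) and Brd7 (log2 fold change 0.73, adjusted p = 0.0372) were also called, Brd7 without overlap. Without Medusa 0 were called by edgeR, with 7 higher and 1 lower at an unadjusted p under 0.05. Of 18 p53 target genes 1 was called lower, Gadd45a, a stress gene that slows the cell cycle, at 13.2 CPM in Medusa, 2.93 in Ohio, 8.8 in Grilka and 12.2 in Zelda, and at 13.6 to 85.7 CPM (median 60.5) in WT (log2 fold change −2.45, SE 0.61, adjusted p = 0.0346). Of 18 genes of the RB and E2F families 3 were called higher, namely E2f4, E2f7 (log2 fold change 1.95, adjusted p = 0.0475), a repressor that is itself cell-cycle driven, and Tfdp1, the partner of E2F factors. Tfdp1 was at 3515 CPM in Medusa, 200.2 in Ohio, 182 in Grilka and 74.9 in Zelda, and at 48.2 to 212 CPM (median 80.7) in WT (log2 fold change 3.2, adjusted p = 0.0413), so Medusa alone stood outside the WT range.

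Most lists of metabolic and stress genes gave few calls. Of 78 nuclear genes of the respiratory chain 8 were called lower (median −0.56), a larger share than the 3.21% called lower over all genes. Atp5b, a catalytic subunit of ATP synthase, was at 181 CPM in Medusa, 228 in Ohio, 208 in Grilka and 221 in Zelda, and at 289 to 457 CPM (median 374) in WT (log2 fold change −0.83, SE 0.22, adjusted p = 0.0449). Uqcrc1, of complex III, was at 57.4 CPM in Medusa, 53.2 in Ohio, 51.3 in Grilka and 39.2 in Zelda, and at 64.8 to 106 CPM (median 95.9) in WT (log2 fold change −0.88, SE 0.21, adjusted p = 0.0323). Both were lower in every floxed tumor. These genes are high in muscle, which moved with the groups, but the part of muscle RNA in this difference was not tested. With all 8 floxed tumors, some of them muscle-rich, the median turned to 0.42 and 0 were called by edgeR. Of 13 genes of the mitochondrial genome 0 were called by edgeR and 1 by DESeq2, with 1 higher at an unadjusted p under 0.05. Of 23 glycolysis and hypoxia genes 0 were called by edgeR and 1 by DESeq2, with 1 lower at an unadjusted p under 0.05. Their median of −0.16 depended on Grilka, the highest tumor on their sum. Without it the median was −0.80, with 1 called lower and 10 lower at an unadjusted p under 0.05. With the ribosomal RNA covariate the median was −1.10, with 0 called by edgeR and 10 lower at an unadjusted p under 0.05, and with all 8 floxed tumors it turned to 0.62. Of 79 cytosolic ribosomal protein genes 1 was called higher, Rpl29 (log2 fold change 1.76, adjusted p = 0.0479), with a median of 0.00. Of 20 aminoacyl-tRNA synthetases 1 was called higher, Cars, which charges the tRNA of cysteine (log2 fold change 1.55, adjusted p = 0.0202), and of 24 genes of the amino acid stress response 1 was called lower, Ddit4, an inhibitor of mTORC1 (log2 fold change −1.78, adjusted p = 0.0232). Of 23 chaperones 2 were called higher, the heat shock genes Hspa1a and Hspa1b. Hspa1b was at 128 CPM in Medusa, 21 in Ohio, 161 in Grilka and 13.6 in Zelda, and at 1.12 to 19.4 CPM (median 3.4) in WT (log2 fold change 3.82, SE 0.78, adjusted p = 0.0212). Medusa and Grilka were highest, and Zelda lay below N215, the highest WT tumor. These 2 genes are near-identical neighbors, so reads cannot be assigned between them with certainty.

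**Figure D4:**
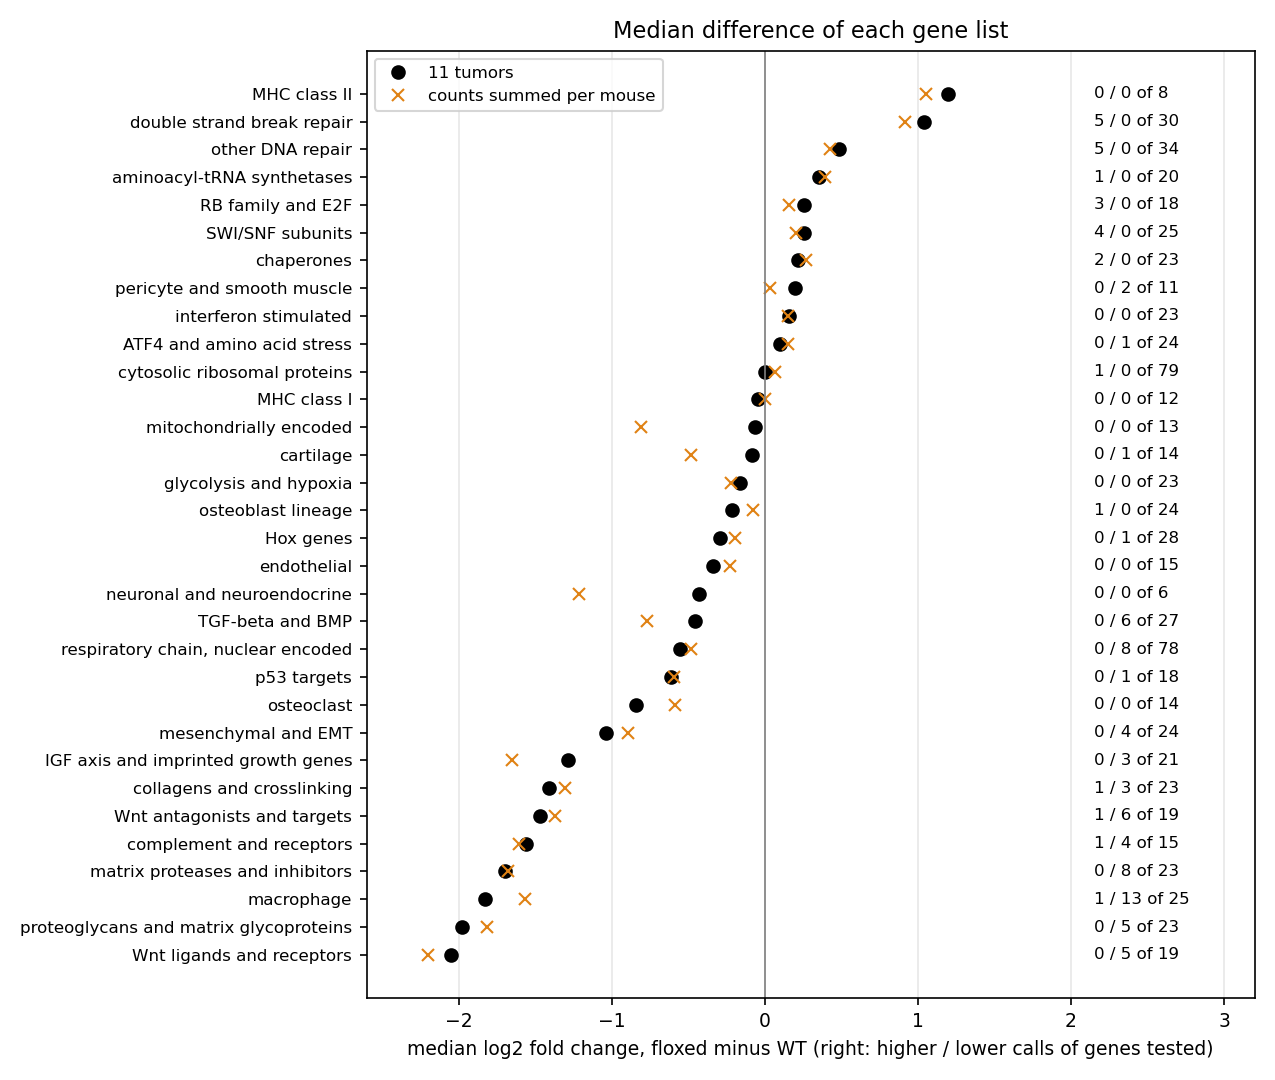
Median log2 fold change, floxed minus WT, of 32 gene lists over the 11 tumors (circles) and with counts summed per mouse (crosses), with the number of members called higher and lower of those tested at the right. Wnt, matrix and macrophage lists lie lowest, and MHC class II and repair lists highest, the MHC class II median only with Zelda, without which it is −0.33.

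The floxed tumors were unlike one another. The mean Euclidean distance over log2 CPM of the tested genes was 242 ± 60.2 between floxed tumors (SD, 6 pairs), 160 ± 35.2 between WT tumors of different mice (14 pairs) and 109 ± 17.7 between WT tumors of a single mouse (7 pairs). Floxed and WT tumors were 225 ± 46.2 apart (28 pairs), so the 4 floxed tumors lay no closer to each other than to WT. Grilka, the shallowest library, was the farthest from the other floxed tumors at 290.3 ± 38.2 (3 pairs). Without it the order turned, with 194 ± 24.6 between floxed tumors (3 pairs) and 199 ± 11.5 between floxed and WT tumors (21 pairs), a gap smaller than either SD.

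Blocks of neighboring genes also stood apart in single tumors, and their part in the distances was not tested. Over 9867 expressed genes in genome order, a rolling median of 15 genes passed 1.5 on the log2 scale, in runs of at least 10 genes, in Medusa, Ohio, Grilka and N42 L limb, and the other 7 tumors held no such run. Ohio held runs at chr3:94443318-95217916 (15 genes, median 2.42 log2 above the other tumors) and chr3:95323525-97297917 (40 genes, median 2.26). N42 L limb held runs at chr15:27542635-38300706 (30 genes, median 1.85) and chr15:55112317-61990374 (23 genes, median 1.97), the latter from Deptor to Myc. Grilka held a run at chr7:64376527-67153171 (11 genes, median 2.0). On chromosome 18, in a cluster of protocadherin genes, some of which overlap, Medusa held a higher run (11 genes, median 1.82) and Grilka a lower run (14 genes, median −1.85), with 0 genes called by edgeR in either.

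Medusa held a run at chr8:12757014-13799193 (12 genes, median 4.08) around Tfdp1. Of 17 expressed genes shown there, 10 were over 4 times the highest other tumor in Medusa, between chr8:12873806 and 14090301, at 15.4- to 45.0-fold the median of the other tumors. Tfdp1 stood at 3515 CPM, Cul4a, the scaffold of a ubiquitin ligase, at 3135, Cdc16, a subunit of the anaphase-promoting complex, at 2395, and Mcf2l, a guanine nucleotide exchange factor, at 2276. Lamp1, a lysosomal membrane protein, and Rasa3 were also highest in Medusa, at 3.41 and 1.38 times the highest other tumor, while Upf3a lay within the range of the others. The calls of its genes, Tfdp1 included, rest on Medusa.

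**Figure D5:**
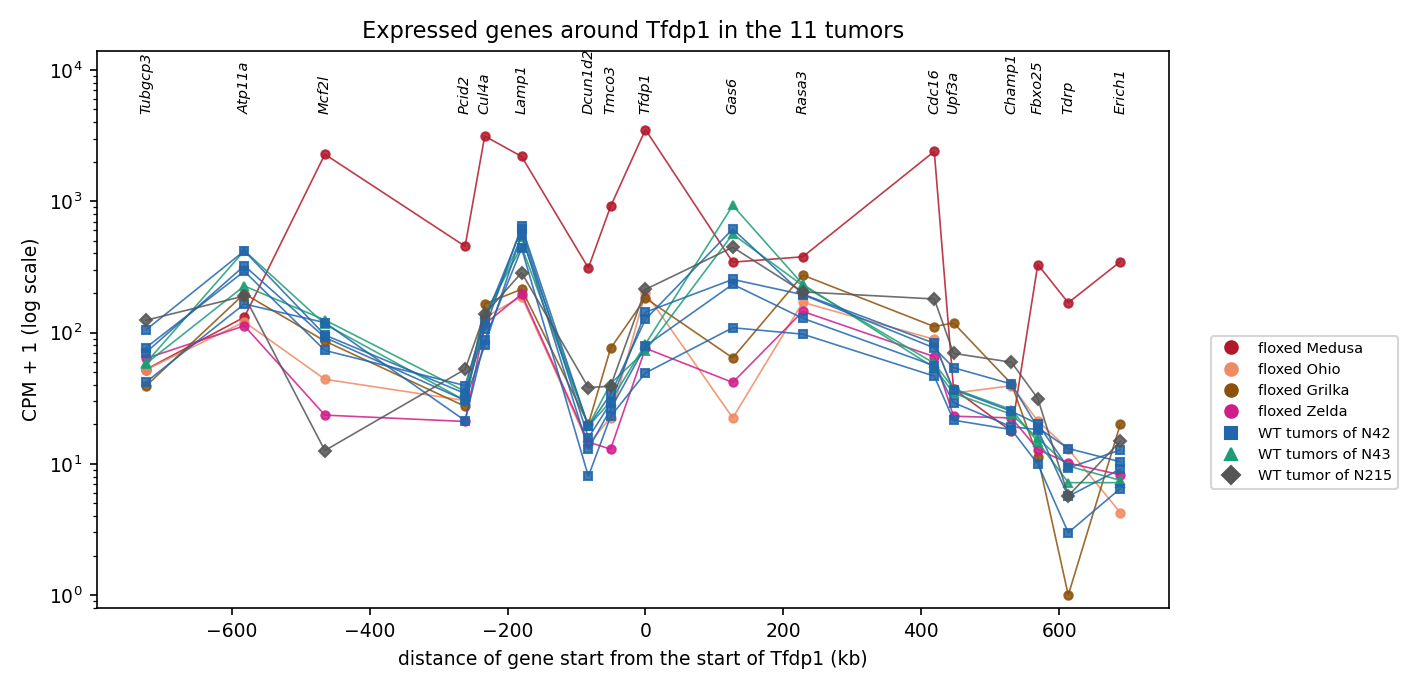
Level of 17 expressed genes around Tfdp1 in each of the 11 tumors, as CPM plus 1 on a log axis, against the distance of the gene start from that of Tfdp1 in kilobases. Medusa (dark red line) stands above all other tumors at 12 genes, by over 4 times at 10 of them, and not above them at the other 5.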

How the data were processed

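RNA was measured by single-end sequencing of ribosome-depleted TruSeq libraries from 16 mouse tumors. The authors deposited raw read counts per gene. By the study's methods and the submitters' processing notes, reads were aligned with Novoalign 2.08.01 to mm10 with added splice junctions, repeated alignments were allowed and the best kept, and USeq counted reads over Ensembl genes before DESeq2 1.26.0. Levels of repeated sequences therefore depend on how copies were resolved, and no strand use was stated. All 16 columns were matched to samples by the labels, and groups came from the labels. The members and lists were chosen with earlier results of these data known.

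Counts of the 11 tumors were tested as deposited in R 4.3.3 with the quasi-likelihood test of edgeR 4.0.16, with TMM normalization, 1 coefficient for genotype and no covariate, after filterByExpr (minimum count 10, minimum total 15) kept 17295 of 25054 genes. p-values were adjusted by Benjamini-Hochberg over all genes tested, with a threshold of 0.05, and the biological coefficient of variation was 56.9%. CPM are edgeR values per 1000000 counts of the TMM-scaled library. Total counts ran from 1812818 to 16962329, and a floor of 3 counts covers counting error only. The study's own test ran in DESeq2, which was used here as an alternative. Genes were placed by GENCODE vM21 (GRCm38), which held 24974 of 25054 identifiers, and RefSeq promoters of GRCm38.p6 were matched by symbol.

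Genes were named by rule: the 12 leading protein-coding genes by adjusted p in each direction, called and without overlap of the groups, and the 2 leading processed pseudogenes, the 3 most abundant called members of each list (or the 2 most abundant where none was called), the targeted and sex-linked genes, and the genes that the study names, of which some are not reported here. Lists of cell-cycle and normal-tissue genes chose the tumors and were not tested.

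Alternatives were DESeq2 1.42.0, RLE normalization, 2 other filters on low counts, counts summed per mouse, limma-voom 3.58.1 with the mouse as a random effect, leaving out each tumor, mouse N42 or mouse N43, all 8 floxed tumors, the lung tumor added, all 16 tumors, a ribosomal RNA covariate, and thinning to 1812818 counts. Leaving out Medusa and Grilka together was chosen after seeing the data. On counts simulated for this comparison over 16979 genes, edgeR found 132 of 193 changed genes and called 5 unchanged genes. The simulated tumors were independent, with a common dispersion and no mouse effect. It therefore cannot show how many calls arise from tumors that share a mouse. Single values were compared by exact permutation over tumors and over mice in Python 3.11.15.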

Additional observations from a re-analysis of the deposited data

Results flagged for a closer look

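Within each group, 1 tumor stood far from the rest for 23 of 254 group-and-gene values examined, by the ratio of its gap to the range of the group. Chance gives about 1 in 20 for independent values of a normal distribution. The values here share tumors and the genes were in part picked on these data, so no excess can be read from the count. N215 R hind limb held 12 of the 23, Zelda 4 and Grilka 3.

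In N215, Napsa, a protease of lung epithelium, was high at 76.4 CPM (other WT tumors 2.99 to 9.84), as were Rnf168 at 77.7 (39.7 to 49.4) and mt-Cytb, of the mitochondrial genome, at 22641 (2349 to 3925). In the same tumor Trf was low at 14.5 CPM (59.5 to 160.5), Csf1r at 77.7 (269.7 to 548), C1qc at 59.5 (165 to 348), Prrx1 at 152 (408 to 835), Kremen1 at 28.4 (112 to 209), Tgfbr3 at 51.8 (218 to 477), Ddit4 at 86.1 (248 to 342), Uqcrc1 at 64.8 (91.7 to 106) and Dclre1c at 24.4 (40.7 to 57.0). N215 was thus low on macrophage genes and on several of the mesenchymal genes described above, on the side of the floxed tumors.

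In Zelda, Rb1 stood at 179 CPM (other floxed tumors 51.8 to 55.7), Trf, a plasma iron carrier made in liver, at 462 (22.0 to 30.1), H2-Aa, a class II chain, at 448 (43.8 to 49.9) and Fbln1 at 4.15 (14.6 to 18.3). In Grilka, Xist was low at 812 CPM (3442 to 3895), Mcm6, of the replicative helicase, at 68.9 (119 to 127), and Timp2 was high at 185 (81.8 to 89.4). In Ohio, Prrx1 was low at 79.0 CPM (198 to 238). In N43 spine, Bmpr2 was high at 825 CPM (372 to 469). Brd9 was high in N42 L limb at 44.1 CPM (24.1 to 30.9) and Recql5 in N43 pelvis at 18.5 (12.6 to 14.7).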

How the results depend on the processing

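The 1195 calls (640 higher, 555 lower) depended strongly on the tumors and the model. DESeq2 called 2905 (1497 higher, 1408 lower), sharing 1139. Counts summed per mouse gave 18 (2 and 16), a voom fit with mouse as random effect 15 (8 and 7), leaving out mouse N42 11 (2 and 9) and leaving out N43 110 (47 and 63). The ribosomal RNA covariate left 68 calls (27 and 41), thinning 205 (94 and 111), and leaving out Medusa and Grilka 459 (339 and 120), of which 208 were shared. With all 16 tumors in 1 fit, 263 were lower. Leaving out 1 tumor in turn gave 128 to 2674 calls, 73 to 1422 higher and 55 to 1252 lower. The lowest came without Medusa and the highest without N215. Counts also moved past 1.5 times without N42 R pelvis (279), L shoulder (311), L limb (585) or R femur (729), N43 spine (560) or pelvis (615), Ohio (498) and Zelda (1987). The cause was not tested. With RLE normalization, other filters, the lung tumor added or all 8 floxed tumors, totals stayed within 1.5 times, but with all 8 only 414 of the calls were shared.

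No paired analysis was possible because floxed and WT tumors came from different mice, and shared replicate numbers name samples only.

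Of 87 called named genes, 7 passed per mouse, and of their 2159 recomputed values 13 changed sign. Those 13 belong to Adssl1, Ttn, Neb, Des, Atp5b, Uqcrc1, Hoxd9, Gm23935, Lars2 and CT010467.1. The other sign changes listed here are of named genes that were not called. With all 8 floxed tumors the log2 fold change turned to 1.12 for Abca3, 1.78 for Adssl1, 0.36 for Atp5b, 2.59 for Des and Ttn, 3.11 for Dsp, 1.223 for Gapdh, 1.88 for Hoxd9, 0.81 for Napsa, 2.32 for Neb, −0.57 for Rrm1, 1.59 for Trp63, 0.72 for Uqcrc1, −0.11 for Xist, 1.51 for mt-Co1 and 1.48 for mt-Cytb. The ribosomal RNA covariate gave 0.20 for Abca3, −0.023 for Arid1a, −0.16 for CT010467.1, −0.034 for Gm23935, −0.43 for Lars2 and −0.94 for Pkm. Without Medusa and Grilka values were 0.055 for Abca3, −0.19 for CT010467.1, −0.37 for Gm23935, −0.42 for Lars2, 0.35 for Napsa and −0.98 for Pkm. DESeq2 gave 1.25 for Dsp, 0.86 for Napsa and 0.45 for mt-Cytb, the voom fit 1.17 for Dsp, −1.42 for Hbb-bs and −0.061 for Pkm, thinning 0.17 for Abca3 and 0.040 for Ifih1, and leaving out N43 −0.0024 for Rrm1. Leaving out 1 tumor, the lowest values without Zelda and the highest over all tumors were −0.66 and 1.21 for Cd74, −0.36 and 1.65 for H2-Aa, −5.73 and 1.76 for Hbb-bs, −3.29 and 3.76 for Jchain, −0.13 and 0.75 for Rb1, −0.20 and 0.34 for Rrm1, −0.19 and 4.22 for S100a8, −4.96 and 3.97 for Slc4a1 and −1.78 and 0.96 for Trf. The range was −0.78 to 0.059 for Abca3, −1.0 to 0.028 for Ifih1 and −0.49 to 0.49 for Pkm, where leaving out Grilka turned the sign, and −2.31 to 1.30 for Dsp, −5.53 to 0.83 for Napsa, −0.76 to 0.00041 for mt-Co1 and −0.61 to 0.49 for mt-Cytb, where leaving out N215 did.

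Of 32 lists, 17 kept the sign of their median in all 25 alternatives. Depth limits low genes in Grilka, where 3 counts equal 4.40 CPM.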

Other observations

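Genes of the Y chromosome were detected in Ohio and N215 R hind limb and were at or near 0 in the other tumors, with Ddx3y at 79.4 and 95.2 CPM. Xist, the RNA of the inactive X chromosome, was read in all 11 tumors, from 461 CPM in N215 to 3895 in Zelda. Each genotype group held 1 tumor carrying Y genes. Both of these also read Xist, Ohio at 3442 CPM and N215 at 461. On the scale of all 16 tumors, Xist was at 0.417 CPM in Prince, 12.4 in Oregon and 13.6 in N25 lung, the left-out tumors with Y genes. Why Ohio and N215 carried both signals was not tested, and their sex cannot be read from these genes.

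Within 10 Mb of Arid1a, 14 of 280 genes tested were called higher and 11 lower (8.93%, beside 6.91% over all genes). By chromosome, calls of higher genes ran from the 8.47% of chromosome 8 and 6.95% of chromosome 16 to lower shares elsewhere. In Medusa, Lig4, the ligase of end joining, stood at 248 CPM against 6.18 to 19.1 in the other floxed tumors, and lies on chromosome 8 at 9969049, upstream of the block around Tfdp1.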
